A study of Mus musculus with 45 samples.

Results

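Fabp3, Lgals1, Ly6a, Perp, Bex1, Krtcap2 and Kdelr2 are 7 genes whose RNA was higher in high-numbered than in low-numbered sections of the early mouse embryo, at each of 3 stages from E5.25 to E5.75. They were chosen by their fitted change with section number, which an earlier analysis of the same values found to be a rise at every stage. They are 7 of the 8832 genes present in all 3 deposited tables and 7 of the 17 genes that passed the test for a rise at every stage, among 6400 genes tested at every stage. Their change with section number therefore describes how they were chosen and is given here with its error and without a p-value. Onset along the sections is read from the same values and is likewise a description. The visceral endoderm (VE) libraries did not enter the choice.

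The embryos were untreated, were taken out of the decidua, the uterine tissue that surrounds the implanted embryo, and were frozen and cut into numbered sections. Laser capture microdissection supplied the tissue, and the libraries came from Smart-seq2, a full-length method for small amounts of RNA that does not mark the strand. The labels give 7 samples at E5.25, 17 at E5.5 and 21 at E5.75, name 1 embryo per stage and no further replicate, and state that the sections run along the proximal-distal axis without saying at which end section 1 lies. Values were available for 7, 9 and 17 section numbers, and for 2 VE libraries from sections 6 and 7 at E5.75. Sections 9 and 13 at E5.75 are not analysed here. The labels list no section between 4 and 6 at E5.25 and none between 2 and 4 at E5.5. At E5.5, each of 7 section numbers has 1 value that joins parts A and B, and the separate parts of section 10 were averaged. Neighbouring sections of 1 embryo stand in for replicates, so errors and p-values measure the spread around a line within that embryo and not the spread between embryos.

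At these stages the embryo is a cup. Its distal part is the epiblast, which forms the body. Its proximal part is the extraembryonic ectoderm, which continues into the ectoplacental cone, and both contribute to the placenta. VE is the epithelium that wraps the cup. The 7 genes have different roles. Fabp3 carries fatty acids in the cytoplasm. Lgals1 encodes galectin-1, a lectin that binds galactose-bearing sugars. Ly6a encodes Sca-1, a lipid-anchored surface protein of the Ly6 family. Perp is a target of p53 and a membrane protein needed for desmosomes, the junctions that rivet epithelial cells together. Bex1 is a small X-linked adaptor protein of the Bex family. Krtcap2 is a subunit associated with oligosaccharyltransferase, the complex that attaches sugar chains to new proteins in the endoplasmic reticulum (ER). Kdelr2 is a receptor that returns escaped ER proteins bearing a KDEL signal from the Golgi.

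All levels are log2(FPKM + 1), where FPKM is a fragment count scaled for transcript length and library size, and a gene is called detected at an FPKM of at least 1. The read depth is unknown, and a 0 in these tables can be a failed measurement: Gapdh, a gene used by every cell, is listed at 0 in section 1 at E5.5. Low-numbered sections held fewer detected genes, and many held more ribosomal precursor RNA (Rn45s). At E5.25, 5636 to 6461 genes were detected in sections 6 to 8, against 2046 to 4282 in sections 1 to 4. At E5.75 the highest count was 8217 in section 17, and the lowest counts were 3211 and 3424 in sections 1 and 2. Rn45s made up 0.676% to 1.99% of summed FPKM in sections 6 to 8 at E5.25, against 0.555% to 26.2% in the first 4. Its share at E5.5 was 2.36% to 10.7% from section 6 to section 10, and 26.5% to 69.8% from section 1 to section 5. At E5.75 it was highest in section 1, at 52.8%. The part of these differences in the rise of the 7 genes was tested only by the fits with detected genes as a covariate, another scaling or sections left out. The section 6 VE library went against its label, since Afp, Ttr and Amn, the defining VE markers, were all listed at 0 in it. In bulk sections, fewer cells that express a gene and less RNA per cell cannot be told apart. Each stage has its own table and the normalization is not given, so levels at different stages are set side by side without a test.

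The promoters of Fabp3 and Bex1 are shown because Fabp3 had the largest change of all genes tested at E5.25 and E5.75, and Bex1 the earliest half-rise of the 7 genes at E5.75. Each runs from 250 bases before to 50 after a RefSeq start (GRCm38.p6), 5′ to 3′, with motif matches in capitals. RefSeq promoters were matched for 3 of the 7 genes. The Fabp3 window is chr4:130308488-130308787 on the plus strand, and that of Bex1 is chrX:136215464-136215763 on the minus strand.
Fabp3: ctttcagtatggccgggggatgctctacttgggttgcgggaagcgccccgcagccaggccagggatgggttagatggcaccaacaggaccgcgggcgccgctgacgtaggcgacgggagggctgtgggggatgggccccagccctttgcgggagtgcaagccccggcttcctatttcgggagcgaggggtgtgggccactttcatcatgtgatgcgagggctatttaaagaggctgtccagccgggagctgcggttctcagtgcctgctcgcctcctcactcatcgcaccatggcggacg
Bex1: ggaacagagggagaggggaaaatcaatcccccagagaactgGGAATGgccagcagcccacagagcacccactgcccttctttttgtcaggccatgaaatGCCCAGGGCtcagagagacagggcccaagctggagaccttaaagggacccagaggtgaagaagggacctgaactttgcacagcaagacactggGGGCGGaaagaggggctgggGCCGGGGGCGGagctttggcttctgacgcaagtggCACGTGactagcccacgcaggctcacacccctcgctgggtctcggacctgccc
The letters searched on both strands were GATAA for GATA factors, GGAATG for TEAD, CCGGAA for ETS, GCCNNNGGC for TFAP2, CACGTG for the E-box, TATAAA for the TATA box, CCAAT for NFY and GGGCGG for Sp1. No match to these letters was in the Fabp3 window. The Bex1 window held a TEAD match 209 bases before the start, TFAP2 matches at 151 and 38, Sp1 matches at 58 and 33, and an E-box at 3. The TFAP2 match at 38 overlaps the Sp1 match at 33. Of 32851 promoters of the same length, 14.7% held the TEAD letters, 16.6% the TFAP2 letters, 7.15% the E-box and 35.7% the Sp1 letters.

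The annotation (GENCODE, GRCm38) places Fabp3 at chr4:130308595-130315463, Perp at chr10:18845020-18857073, Krtcap2 at chr3:89245966-89249906 and Kdelr2 at chr5:143403838-143421901, all on the plus strand. Lgals1 lies at chr15:78926725-78930465 on the plus strand, and Ly6a at chr15:74994877-74998031 and Bex1 at chrX:136213972-136215513 on the minus strand. The RefSeq start of Fabp3 used for the window above lies inside the GENCODE gene. Reads of 3 genes could be split with near-identical copies. In 50-base windows of the longest transcript, Bex1 shares 32.8% of windows, mainly with Bex4, Fabp3 shares 29.2% with Fabp3-ps1, and Ly6a shares 4.42% with Ly6c1, 3.42% with Ly6i and 2.21% with I830127L07Rik. Exons of Fabp3 overlap 81 bases of Zcchc17 on the other strand, those of Bex1 223 bases of Tceal7, and those of Krtcap2 239 bases of Trim46. Values of these genes are uncertain to that extent.

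At E5.25, 6 of the 7 genes were near absent through section 4 and high from section 6 on. Fabp3 stood at 8.01, 7.51 and 7.56 in sections 6, 7 and 8, and at 0.98 in section 3 with 0 in sections 1, 2 and 4. Lgals1 stood at 7.31, 7.11 and 6.20 in the same 3 high sections, against 0.56 in section 4 and 0 in the other low sections. Kdelr2 was level across the high sections, at 5.55, 5.68 and 5.62, against 0.34 in section 3 and 0 in sections 1, 2 and 4. These 3 genes thus had at most a trace in the low sections, below an FPKM of 1.

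Ly6a, Perp and Krtcap2 were listed at 0 in all 4 low sections at E5.25. Ly6a had 7.36, 7.34 and 6.49 in sections 6, 7 and 8. Krtcap2 had 7.54, 6.84 and 6.46 there, and so, like Ly6a, was lowest in section 8. Perp had 4.6, 5.05 and 5.91, the reverse order. Bex1 was the exception: besides 7.97, 7.80 and 7.99 in sections 6 to 8 it already had 5.44 and 4.81 in sections 3 and 4, with 0 in sections 1 and 2.

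The fitted change from the lowest to the highest section number at E5.25 was 9.65 ± 1.84 for Fabp3 (log2, standard error, n = 7 sections), the largest of 7148 genes tested. It was 9.0 ± 1.81 for Ly6a, 8.81 ± 1.81 for Krtcap2, 8.67 ± 1.78 for Lgals1 and 8.61 ± 1.77 for Bex1. Kdelr2 and Perp had 7.20 ± 1.61 and 6.93 ± 1.53. The median of the 7 genes was 8.67, against 1.45 over all genes tested. All 7 passed at an adjusted p below 0.05, as the choice required, where 0.378% of genes tested passed. In all 7, every section from 6 to 8 exceeded every section from 1 to 4, which held for 29.3% of genes tested.

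The calls at E5.25 that chose these genes were fragile. None of the 7 passed with quantile normalization, with a pseudocount of 5, without the filter on low values, with detected genes as a covariate, or without section 6, and 1 passed without section 7. Without sections 1 and 2, left out after the data were seen, 4 passed, namely Fabp3, Lgals1, Ly6a and Krtcap2, and the change of Bex1 was 3.33. Every change stayed positive in these fits, and with the covariate they lay between 3.98 and 7.57.

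**Figure D1:**
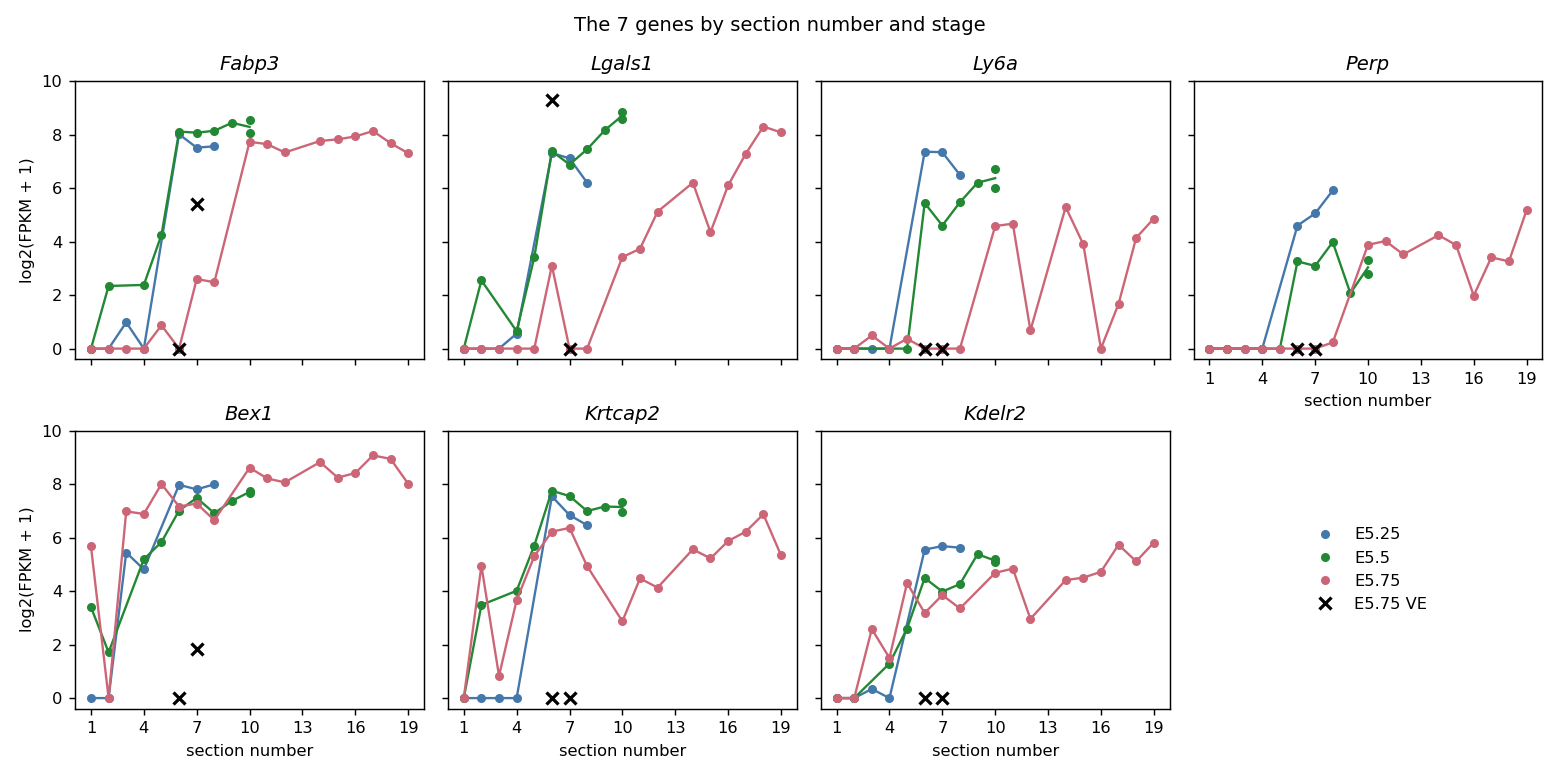
Level of each gene, as log2(FPKM + 1), against section number at each stage, with the 2 E5.75 VE libraries as crosses. Points are libraries and lines join section means. At E5.25 6 genes step up between sections 4 and 6, while Bex1 is present from section 3.

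At E5.5 all 7 genes were again higher in sections 6 to 10 than in sections 1 to 5, but 5 of them were already detected below section 6. Fabp3 had 8.11, 8.07, 8.14, 8.44 and 8.28 in sections 6 to 10, against 0, 2.34, 2.38 and 4.25 in sections 1, 2, 4 and 5. Lgals1 had 7.38, 6.88, 7.45, 8.16 and 8.71 in the high sections, against 0, 2.55, 0.65 and 3.41 in the low ones. Fabp3 was flat from section 6 on, and Lgals1 was highest in section 10.

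Ly6a and Perp, both surface membrane proteins, were listed at 0 in all 4 low sections at E5.5. Ly6a had 5.44, 4.60, 5.47, 6.20 and 6.37 in sections 6 to 10. Perp was the lowest of the 7 genes there, at 3.26, 3.09, 3.98, 2.07 and 3.04.

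The other 3 genes were already above 0 in sections 4 and 5 at E5.5. Bex1 had 7.01, 7.48, 6.91, 7.37 and 7.70 in sections 6 to 10, against 3.40, 1.71, 5.19 and 5.83 in sections 1, 2, 4 and 5. Krtcap2 had 7.75, 7.55, 6.99, 7.16 and 7.14 in the high sections, against 0, 3.48, 4.01 and 5.70 in the low ones. The 2 genes had the highest values of the 7 in section 5. Kdelr2 had 4.49, 3.98, 4.26, 5.38 and 5.14 in the high sections, against 0, 0, 1.29 and 2.60 in the low ones. Parts A and B of section 10 differed by at most 0.70, the gap of Ly6a, which had 6.02 in part A and 6.72 in part B.

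The fitted change at E5.5 was 9.08 ± 1.25 for Lgals1, 9.0 ± 1.20 for Fabp3 and 7.84 ± 1.24 for Ly6a (log2, standard error, n = 9 section numbers). It was 6.55 ± 1.22 for Krtcap2, 5.96 ± 0.88 for Kdelr2, 5.46 ± 1.01 for Bex1 and 3.91 ± 1.01 for Perp. The median was 6.55, against 1.21 over all 8306 genes tested. All 7 passed, as the choice required, at a stage where 28.0% of genes tested passed as rising. In all 7, every high section exceeded every low section, which held for 22.4% of genes tested.

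Of these changes, that of Krtcap2 was the least secure. With detected genes as a covariate it was -1.15 ± 1.62, and without section 1 it was 4.05. The covariate also left 3.10 ± 2.08 for Fabp3, 1.58 ± 2.27 for Perp and 5.29 ± 2.61 for Lgals1. Without sections 1 and 2 the change of Krtcap2 was 2.48, that of Bex1 2.26, that of Kdelr2 3.62 and that of Fabp3 5.60. That of Lgals1 was 7.23 and that of Ly6a 6.75.

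At E5.75, where 17 sections give the finest view, the onsets of the 7 genes were spread out. Fabp3, Lgals1, Ly6a and Perp stepped up between sections 8 and 10, while Bex1, Krtcap2 and Kdelr2 were already detected in every section from 4 to 8. Across sections 10 to 19 Fabp3 ranged from 7.30 to 8.13 with a median of 7.73. In sections 1 to 8 it ranged from 0 to 2.60 with a median of 0, and it had 2.48 in section 8 and 7.73 in section 10. The groups did not overlap.

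Lgals1 ranged from 3.42 to 8.30 with a median of 6.10 in sections 10 to 19, and from 0 to 3.10 with a median of 0 in sections 1 to 8. Its only low-section value above 0 was the 3.10 in section 6. Beyond section 10 the 2 genes differed in shape. Fabp3 averaged 7.57 ± 0.21 in sections 10 to 12, 7.84 ± 0.09 in 14 to 16 and 7.71 ± 0.42 in 17 to 19 (SD, n = 3 sections each). Lgals1 averaged 4.09 ± 0.90, 5.55 ± 1.04 and 7.89 ± 0.54 in the same groups of sections. Fabp3 was on a plateau from section 10, while Lgals1 kept climbing to the last sections.

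Perp ranged from 1.98 to 5.17 with a median of 3.87 in sections 10 to 19, against a single trace of 0.23, in section 8, in sections 1 to 8. Ly6a ranged from 0 to 5.29 with a median of 4.14 in sections 10 to 19, and from 0 to 0.49 with a median of 0 in sections 1 to 8. It was the most uneven of the 7: after 4.58 and 4.67 in sections 10 and 11 it had 0.68 in section 12, 5.29 in section 14, 0 in section 16 and 1.67 in section 17. Because of section 16 the groups overlapped. Markers of extraembryonic ectoderm in sections 12, 16 and 17 summed to 279, 154 and 320 FPKM, with 10, 5 and 7 of 10 detected and Cdx2 at 0 in sections 16 and 17. The part of tissue makeup in these low Ly6a values was not tested.

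Bex1 ranged from 8.01 to 9.07 with a median of 8.41 in sections 10 to 19, and from 0 to 8.0 with a median of 6.93 in sections 1 to 8. Its value was 5.67 in section 1, 0 in section 2 and 6.98 in section 3, so the groups were barely apart, at 8.01 in section 19 and 8.0 in section 5. Kdelr2 ranged from 2.96 to 5.81 with a median of 4.72 in the high sections, and from 0 to 4.30 with a median of 2.88 in the low ones. The groups overlapped because section 12 had 2.96 and section 5 had 4.30.

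Krtcap2 was high on both sides of a dip at section 10. It ranged from 2.87 to 6.87 with a median of 5.34 in sections 10 to 19, and from 0 to 6.36 with a median of 4.94 in sections 1 to 8. It reached 6.22 and 6.36 in sections 6 and 7, had 2.87 in section 10, and returned to 6.22 and 6.87 in sections 17 and 18. Only 1 of its 9 high sections, section 18, exceeded every low section.

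**Figure D2:**
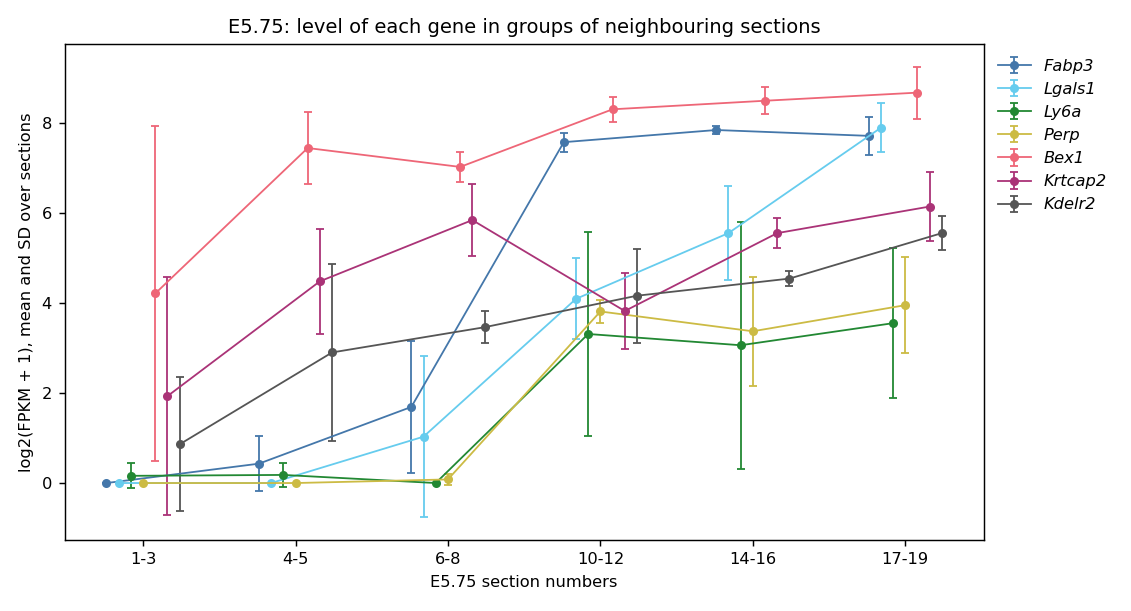
Mean level of each gene, as log2(FPKM + 1), in groups of neighbouring sections at E5.75. Bars are SD over 2 or 3 sections. Fabp3 is flat at 7.57 to 7.84 from sections 10-12 on, Lgals1 climbs to 7.89, and Krtcap2 dips to 3.82 in sections 10-12.

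The fitted change at E5.75 was 10.16 ± 1.05 for Fabp3, the largest of 11149 genes tested, and 9.05 ± 0.84 for Lgals1 (log2, standard error, n = 17 sections). It was 5.12 ± 0.82 for Perp, 4.51 ± 0.76 for Kdelr2, 4.29 ± 1.13 for Ly6a, 4.12 ± 1.07 for Bex1 and 3.36 ± 1.06 for Krtcap2. The median was 4.51, against 0.80 over all genes tested. All 7 passed, as the choice required, where 18.9% of genes tested passed as rising. The groups did not overlap in 4 of the 7, Fabp3, Lgals1, Perp and Bex1, which held for 1.79% of genes tested.

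The changes of Fabp3 and Lgals1 at E5.75 hardly depended on the first sections, and those of Bex1 and Krtcap2 did. Without sections 1 and 2 the change was 9.27 for Fabp3, 8.76 for Lgals1, 1.81 for Bex1 and 2.86 for Kdelr2. Without section 2 alone that of Bex1 was 2.43, and without section 1 alone that of Krtcap2 was 2.17. With detected genes as a covariate the change was 9.92 for Fabp3, 10.06 for Lgals1, 0.94 for Bex1, 1.14 for Krtcap2 and 2.28 for Kdelr2.

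Onset was read in 2 ways. Sustained detection is the lowest section number from which every later section reaches an FPKM of at least 1. Half-rise is the lowest section number from which every later section lies at or above the midpoint of the lowest and highest section value of that stage, on the log2 scale. At E5.25 both were section 6 for Fabp3, Lgals1, Ly6a, Perp, Krtcap2 and Kdelr2, and section 3 for Bex1. No section between 4 and 6 was available at that stage, so an onset in section 6 means anywhere after section 4.

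At E5.5 sustained detection began in section 1 for Bex1, section 2 for Fabp3 and Krtcap2, section 4 for Kdelr2, section 5 for Lgals1 and section 6 for Ly6a and Perp. Half-rise fell in section 4 for Bex1 and Krtcap2, in section 5 for Fabp3 and in section 6 for Lgals1, Ly6a, Perp and Kdelr2. The 7 half-rises thus lay within sections 4 to 6 of those available. No section between 2 and 4 was available, so an onset in section 4 means anywhere after section 2. Fabp3 only just met its midpoint of 4.22 in section 5, with 4.25.

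At E5.75 the order was spread widely. Sustained detection began in section 3 for Bex1 and Kdelr2, section 4 for Krtcap2, section 7 for Fabp3, section 10 for Lgals1 and Perp, and section 17 for Ly6a. Half-rise fell in section 3 for Bex1, 5 for Kdelr2, 10 for Fabp3, 11 for Krtcap2, 12 for Lgals1, 17 for Perp and 18 for Ly6a. The late half-rise of Perp rests on section 16, where it had 1.98, and that of Ly6a follows its low values in sections 12, 16 and 17. Both genes were first detected in section 10. No section between 8 and 10 was analysed, so an onset in section 10 means anywhere after section 8. The half-rise of Krtcap2 at 11 follows its dip in section 10, since it already lay above its midpoint of 3.43 in sections 4 to 8. The median half-rise was section 6 at E5.25 and E5.5 and section 11, the Krtcap2 value, at E5.75. Section numbers of different embryos are not the same position.

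**Figure D3:**
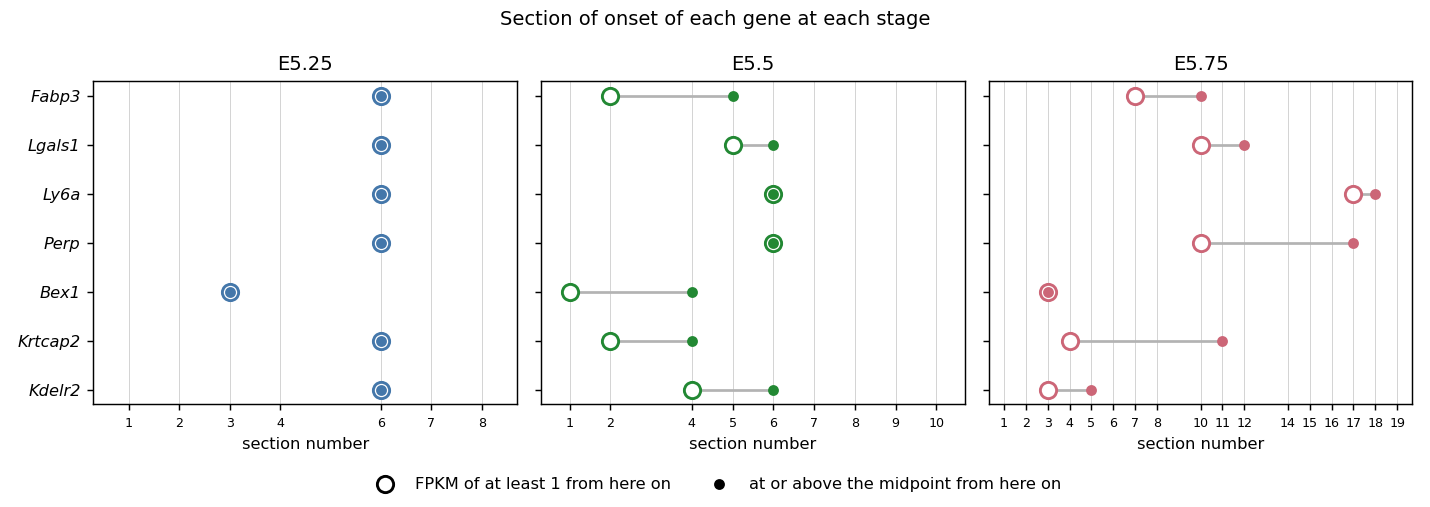
Onset of each gene by section number at each stage. Open circles mark the section from which FPKM stays at or above 1, and filled circles the section from which the level stays at or above its midpoint. At E5.25 6 genes share section 6, and at E5.75 half-rises range from section 3 for Bex1 to section 18 for Ly6a.

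The number of the 7 genes detected in a section was highest where most genes were detected at E5.25, and at E5.75 the extremes went the same way. Sections 17, 18 and 11, with 8217, 8200 and 8015 detected genes, had all 7, and sections 1 and 2, with 3211 and 3424, had 1 each. Sections in between did not follow that order. At E5.25 all 7 were detected in sections 6 to 8, against 0 to 1 in sections 1 to 4. Section 10 at E5.75 had 7035 detected genes and all 7 of these, while sections 5, 6 and 7 had 7689, 7556 and 7385 detected genes and 3, 4 and 4 of the 7. Those not detected in sections 5 to 8 were all among Fabp3, Lgals1, Ly6a and Perp. All 7 were detected in sections 10 to 19 except in sections 12 and 16, where Ly6a was below an FPKM of 1.

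**Figure D4:**
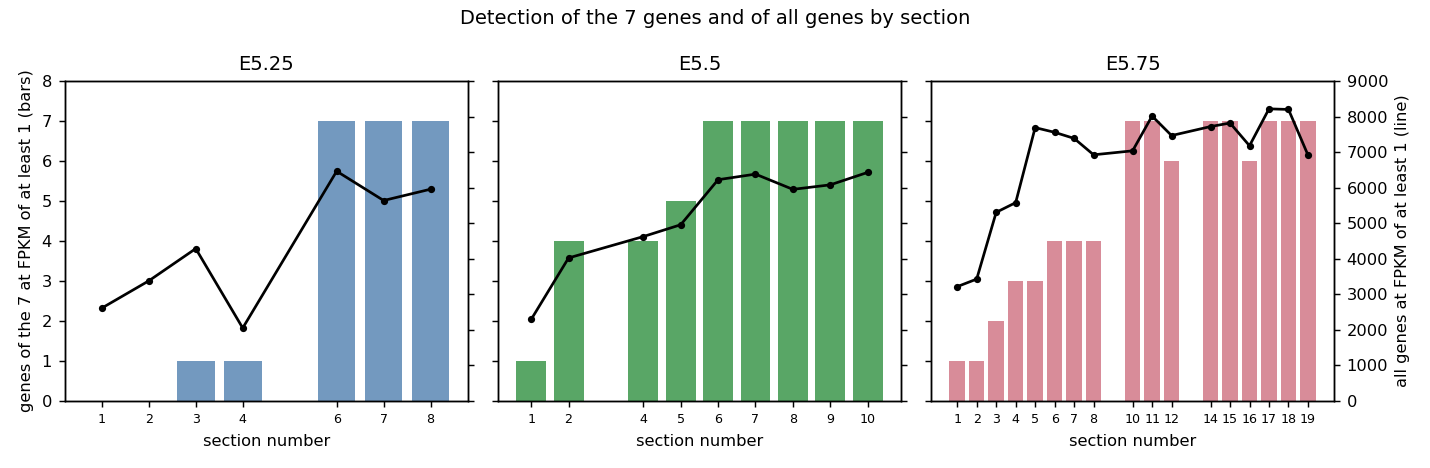
Bars give the number of the 7 genes at FPKM of at least 1 in each section, and the line the number of all genes at that level (right axis). At E5.75 sections 5 to 8 have 6923 to 7689 detected genes but only 3 or 4 of the 7.

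Correlations between the 7 genes across sections are a description only, because genes chosen for a rise at every stage correlate by that choice, and because sections share an embryo and differ in detected genes. Over 21 gene pairs the median Pearson correlation was 0.99 at E5.25 (n = 7 sections), 0.90 at E5.5 (n = 9) and 0.63 at E5.75 (n = 17). At E5.75 the closest pair was Fabp3 and Perp at 0.92, and the least alike was Ly6a and Krtcap2 at 0.18.

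Genes tested at every stage were ranked by likeness to each of the 7. Likeness is the mean over the 3 stages of the Pearson correlation on the log2 scale. For Fabp3 these were Tinagl1 at 0.98, with Litaf and Tfap2c at 0.97. For Lgals1 they were Gata3 and Phlda2 at 0.96 and Tfap2c at 0.95. Tfap2c and Gata3 encode transcription factors of the trophoblast, and Phlda2 is an imprinted gene known for limiting placental growth. Tfap2c, Bmp8b and Elf5 are on the extraembryonic ectoderm list used here, and Gata3 and Phlda2 on the trophoblast list. For Ly6a they were Bmp8b at 0.93, with Cldn3 and Elf5 at 0.91, and Elf5 is a factor of trophoblast stem cells. For Perp they included Ndrg1 at 0.95, with Tinagl1 at 0.94.

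None of the genes most like the other 3 is on these lists. Bex1 was nearest to Myeov2 at 0.94, with Psma3, a proteasome subunit, and Sep15, an ER selenoprotein, at 0.92. Krtcap2 was nearest to Pam16, of the mitochondrial import motor, at 0.90, with Mtpn and Actr3 at 0.89. Kdelr2 was nearest to the tetraspanin genes Cd9 at 0.97 and Cd63 at 0.95, with Mrps28 at 0.95.

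Marker lists moved along the same sections. At E5.75 limma with Benjamini-Hochberg adjustment found 9 of 11 ectoplacental cone and trophoblast markers and 6 of 10 extraembryonic ectoderm markers rising, and 8 of 10 epiblast markers falling, where 18.9% of all genes rose and 2.07% fell. At E5.5, where 28.0% of all genes rose, 5 of 10 markers on each of the trophoblast and extraembryonic ectoderm lists rose. Of epiblast markers 0 of 10 fell there, 1 having an unadjusted p below 0.05. With detected genes as a covariate 0 of 10 on the trophoblast or extraembryonic ectoderm list rose at E5.5 by limma. There 4 and 1 of them had an unadjusted p below 0.05. At E5.75 that fit left 7 of 11 trophoblast and 4 of 10 extraembryonic ectoderm markers rising, and 8 of 10 epiblast markers falling. At E5.25, where 0.378% of all genes rose, the trophoblast marker Phlda2 was the 1 that rose. In limma 9 of 10 extraembryonic ectoderm markers rose at an unadjusted p below 0.05, as did 2207 of all 7148 genes tested. At either level 0 epiblast markers fell. Decidua markers rose too at E5.75, in 4 of 7 tested (Prl8a2, Cryab, Htra1 and Cebpb), and in 4 of 7 with detected genes as a covariate. The list summed to 4.32 to 323 FPKM in sections 10 to 19, against 0 to 15.8 in sections 1 to 8. Of the defining decidua markers besides Prl8a2, Dcn changed by -0.81 ± 0.53 (limma, adjusted p = 0.283) and Hoxa10 was too low to be tested. Endothelial markers rose in 3 of 5 (Pecam1, Cdh5 and Eng), with sums of 0.858 to 76.9 FPKM, against 0 to 2.88, but in 1 of 5 with detected genes as a covariate. Kdr was at 0 or absent at E5.75. The part of these tissues in the levels of the 7 genes was not tested. At E5.5 decidua markers rose in 2 of 5 tested and Hoxa10 fell. With the covariate 0 of 5 rose there by limma, 1 having an unadjusted p below 0.05. At E5.25 1 decidua marker was tested and did not pass.

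Another 10 genes also passed at all 3 stages. Among those with the largest smallest change were Phlda2 (8.13 at E5.25, 8.15 at E5.5 and 10.13 at E5.75), Id2 (8.50, 8.30 and 7.37), Tinagl1 (7.03, 6.61 and 6.57) and Cox8a (8.42, 8.22 and 5.26). Of the 7, Kdelr2 lay nearest the threshold. The gene just outside the threshold was Mrps21, with changes of 8.56, 6.87 and 2.96.

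Relatives of the 7 genes were examined to see whether their families and machineries changed with section number. All tests were limma fits over all genes of a stage with Benjamini-Hochberg adjustment. At E5.25 the 1 gene that passed among these 10 lists was Dbi, an acyl-CoA-binding protein, at 8.42 ± 1.89 (adjusted p = 0.0455), named after its value was seen. The lists are therefore described at E5.5 and E5.75, where 28.0% and 18.9% of all genes passed as rising. Of 20 calls at E5.75 on relatives named by rule, 5 remained with detected genes as a covariate: Dsp, Plaur, Kdelr3, Bex2 and Pmaip1. Of 16 such calls at E5.5, 0 remained with it by limma, where 325 of all genes tested rose at an unadjusted p below 0.05.

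The other intracellular lipid-binding proteins gave few calls. Of 4 tested at E5.75 0 passed by limma, and 0 at an unadjusted p below 0.05. Fabp5, which also carries fatty acids, changed by 1.38 ± 0.97 (adjusted p = 0.315), Fabp1 by 0.62 ± 0.50 (adjusted p = 0.382) and the retinoic acid carrier Crabp2 by -2.38 ± 1.24 (adjusted p = 0.169). At E5.5 1 of 2 passed, Fabp5, which rose by 3.85 ± 0.99 (adjusted p = 0.00934). Among 15 tested genes of fatty acid uptake and oxidation 2 rose at E5.75, namely Plin2, a lipid droplet coat protein, by 3.52 ± 0.99 (adjusted p = 0.0152) and Hadhb, a mitochondrial oxidation enzyme, by 2.89 ± 0.75 (adjusted p = 0.00953). At E5.5 4 of 14 rose and 1 fell.

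Of 4 other galectins tested at E5.75, 1 passed: Lgals3, which binds the same class of sugars as Lgals1, rose by 3.80 ± 0.84 (adjusted p = 0.0031). It also rose at E5.5, by 3.95 ± 0.93 (adjusted p = 0.00581). Lgals8 and Lgals9 changed by 1.26 ± 0.51 and 1.75 ± 0.72 at E5.75 (adjusted p = 0.0798 and 0.0818).

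Of 8 tested relatives of Ly6a at E5.75, 1 rose: Plaur, the urokinase receptor, by 5.72 ± 0.80 (adjusted p = 3.09e-05). Its median was 3.16 in sections 10 to 19, against 0 in sections 1 to 8. Ly6c2 changed by 0.99 ± 0.51 (adjusted p = 0.164), and Cd59a, a complement inhibitor, by -2.39 ± 0.90 (adjusted p = 0.0615). At E5.5 Plaur was the 1 of 5 that rose, by 2.23 ± 0.76 (adjusted p = 0.0362).

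Perp has 2 settings, the desmosome and p53. At E5.75 5 of 7 tested desmosome genes rose. Dsp, which links desmosomes to keratin filaments, rose by 4.74 ± 0.58 (adjusted p = 7.99e-06), with a median of 3.24 in sections 10 to 19, against 0.29 in sections 1 to 8. The plaque proteins Jup and Pkp2 rose by 2.45 ± 0.50 and 2.97 ± 0.77 (adjusted p = 0.00157 and 0.00918), and the cadherins Dsg2 and Dsc2, named after their values were seen, also passed. The number of desmosome genes that rose was 1 of 7 with detected genes as a covariate and 3 of 7 without sections 1 and 2.

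Among p53 and its targets, 0 of 13 tested rose at E5.75 by limma, 2 having an unadjusted p below 0.05. Pmaip1, which promotes apoptosis, fell by 4.02 ± 1.16 on the log2 scale (adjusted p = 0.0169), with a median of 0 in sections 10 to 19, against 4.47 in sections 1 to 8. Bax, another apoptosis gene, changed by 3.02 ± 1.12 (adjusted p = 0.0561) at E5.75 and rose by 4.53 ± 0.90 at E5.5 (adjusted p = 0.00227). At E5.5 1 of 10 genes on this list rose and 2 fell. Those that fell, named after their values were seen, were Trp63 by 4.37 ± 1.24 and Trp53inp1 by 3.79 ± 1.06 on the log2 scale (adjusted p = 0.0154 and 0.0144). Mdm2, the main inhibitor of p53, changed by 2.04 ± 0.91 (adjusted p = 0.11) at E5.75.

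The Bex and Tceal family, to which Bex1 belongs, moved both ways at E5.75, with 2 of 8 tested rising and 3 falling. Bex3, listed in the files as Ngfrap1, rose by 5.61 ± 0.95 (adjusted p = 0.000348), with a median of 7.89 in sections 10 to 19, against 5.32 in sections 1 to 8. Bex2 fell by 4.28 ± 1.04 on the log2 scale (adjusted p = 0.00607), with a median of 0.67 in the high sections, against 4.57 in the low ones. Tceal5 fell by 2.97 ± 0.81 (adjusted p = 0.0127). The other 2, Tceal8 falling and Tceal9 (Wbp5) rising, were named after their values were seen. Bex1 shares sequence with Bex2 and Bex4, and a split of reads among them was not tested.

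Subunits of oligosaccharyltransferase, which Krtcap2 accompanies, rose in 7 of 11 at E5.5 and 6 of 11 at E5.75. At E5.75 Stt3b, a catalytic subunit, rose by 2.56 ± 0.62 (adjusted p = 0.00608), Dad1 by 3.63 ± 0.95 (adjusted p = 0.00954) and Rpn2 by 2.24 ± 0.59 (adjusted p = 0.00991). With detected genes as a covariate 0 of 11 passed by limma at either stage, where 1 at E5.5 and 0 at E5.75 had an unadjusted p below 0.05. Without sections 1 and 2, 3 passed at E5.5 and 2 at E5.75.

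Many genes of the retrieval machinery around Kdelr2 rose. Of ER retrieval and COPI coat genes 12 of 19 rose at E5.5 and 11 of 20 at E5.75. Kdelr1 and Kdelr3, the other KDEL receptors, rose by 4.15 ± 0.77 and 3.13 ± 0.75 at E5.75 (adjusted p = 0.000671 and 0.00559), and the coat subunit Copg1, listed as Copg, by 2.99 ± 0.63 (adjusted p = 0.00197). With detected genes as a covariate 2 of 20 rose at E5.75 and 0 of 19 at E5.5, where 1 had an unadjusted p below 0.05. Without sections 1 and 2, 4 of 20 rose at E5.75, and at E5.5 0 of 19 rose, 6 having an unadjusted p below 0.05, and 1 fell.

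A list of ER chaperones and their partners, not all of which carry the signal Kdelr2 recognises, rose in 7 of 12 at E5.5. At E5.75 4 of 12 rose. In these 3 lists of ER machinery 0 genes fell by limma at either stage, and 0 at an unadjusted p below 0.05. At E5.75 Creld2 rose by 3.57 ± 0.99 (adjusted p = 0.0133), Pdia3, a disulfide isomerase, by 2.14 ± 0.60 (adjusted p = 0.0142) and Dnajb11, a cochaperone, by 2.28 ± 0.71 (adjusted p = 0.0264). The covariate left 0 of 12 at both stages by limma, with 1 at E5.5 and 2 at E5.75 at an unadjusted p below 0.05. Without sections 1 and 2, 2 passed at E5.75 and 0 at E5.5, where 5 had an unadjusted p below 0.05.

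The VE libraries were set against sections 6 and 7 at E5.75, which did enter the choice of genes, while VE did not. Krtcap2 and Kdelr2 were listed at 0 in both VE libraries. Krtcap2 had 6.22 and 6.36 in sections 6 and 7, and Kdelr2 had 3.18 and 3.85. Bex1 was at 0 in section 6 VE and 1.82 in section 7 VE, against 7.16 and 7.27 in sections 6 and 7. For these 3 genes both VE libraries lay below both sections, which held for 70.8% of genes tested.

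The VE level of Bex1 was lower by a log2 difference of -6.30 ± 0.98 (limma, adjusted p = 0.0161, n = 2 against 2). For Krtcap2 and Kdelr2 the differences were -6.29 ± 0.48 and -3.51 ± 0.34. These 2 genes met the filter on low values only through sections 6 and 7. Being at 0 in both VE libraries, they have no spread there, so their differences are given without a p-value. For the same reason they are not counted as calls, which leaves Bex1. Of all 6413 genes tested, 56.6% were called lower in VE, so a lower VE level is no result about these genes. The VE libraries had 1496 and 2147 detected genes, against 7556 and 7385 in sections 6 and 7. Rn45s made up 62.2% and 48.8% of their summed FPKM, against 5.70% and 3.89%. Its part in the difference was examined only by a fit at a common sum without Rn45s. There the differences were -6.32 for Krtcap2, -3.54 for Kdelr2 and -6.39 for Bex1. Bex1 did not pass with a pseudocount of 0.1 (adjusted p = 0.0557), with quantile normalization (adjusted p = 0.0594), or without section 6 or section 7 (adjusted p = 0.999 and 1). Without either section, Krtcap2 and Kdelr2 failed the filter on low values.

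Fabp3 and Lgals1 split the VE libraries in opposite ways. Fabp3 was at 0 in section 6 VE and 5.40 in section 7 VE, against 0 in section 6 and 2.60 in section 7. Lgals1 was at 9.30 in section 6 VE, its highest value in any E5.75 library, and 0 in section 7 VE, against 3.10 in section 6 and 0 in section 7. The groups overlapped, and the differences were 1.40 ± 2.41 for Fabp3 and 3.10 ± 3.95 for Lgals1 (limma, adjusted p = 0.707 and 0.604). Ly6a and Perp were listed at 0 in all 4 libraries and were not tested.

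Section 7 VE had a summed VE marker level of 480 FPKM, though Afp was at 0 in it too. Section 6 VE, whose defining markers were at 0, had 16.6 FPKM, against 43.5 FPKM in section 6 and 25.1 FPKM in section 7. Some markers on the lists of other tissues were detected in both VE libraries. Epiblast markers summed to 208 FPKM in section 6 VE and 278 FPKM in section 7 VE, against 726 and 673 FPKM in sections 6 and 7. In section 6 VE 2 of 10 epiblast markers were detected, with Pou5f1 and Sox2 at 0, and in section 7 VE 7 of 10. Trophoblast markers summed to 576 and 145 FPKM in the VE libraries, against 401 and 53.7 FPKM. Each VE library had 2 of 12 trophoblast markers detected, with Ascl2 and Phlda2 at 0. Whether epiblast or trophoblast tissue was in the VE libraries was not tested. Without section 6 VE the Fabp3 difference was 4.10 ± 1.02 (limma, adjusted p = 0.00938), and without section 7 VE that of Lgals1 was 7.75 ± 1.02 (adjusted p = 0.000296). Each then rests on a single VE library, assumed to vary like the sections.

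**Figure D5:**
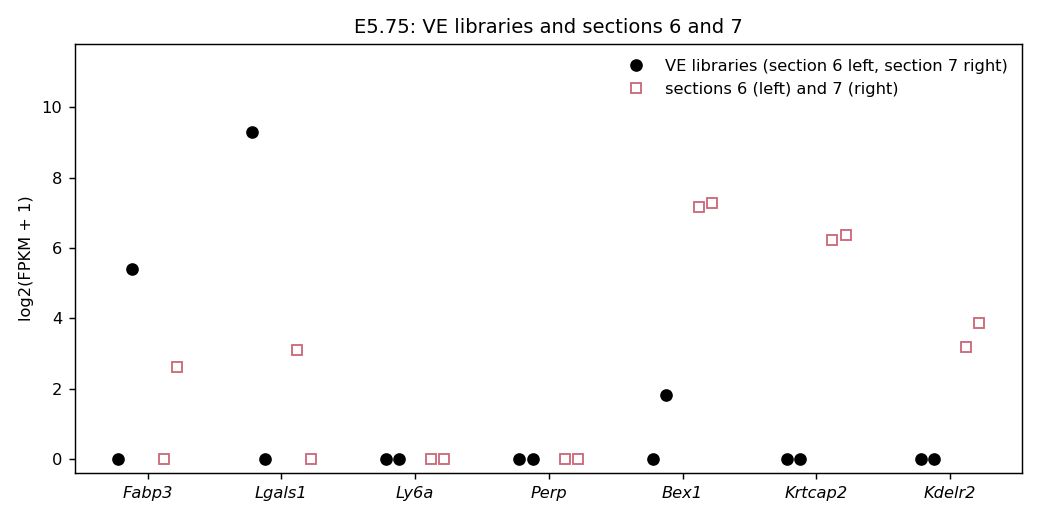
Level of each gene, as log2(FPKM + 1), in the VE libraries of sections 6 and 7 (filled circles) and in sections 6 and 7 (open squares) at E5.75. Each point is 1 library. Bex1, Krtcap2 and Kdelr2 lie at 0 to 1.82 in VE and at 3.18 to 7.27 in the sections, while Fabp3 and Lgals1 overlap.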

How the data were processed

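Per the labels, RNA from laser-captured sections was sequenced after Smart-seq2. TopHat2 2.0.4 and Cufflinks 2.0.2, with build mm10, are listed in the submitters' processing notes; the annotation and normalization are not given in the sources used here. The authors deposited log2-scaled FPKM in 1 table per stage, read as log2(FPKM + 1) from the values, and no column was left unused. The authors gave no counts, so depth is unknown.

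Genes with FPKM of at least 1 in at least 2 fitted samples were tested with limma 3.58.1 in R 4.3.3 (eBayes with trend, 2-sided, Benjamini-Hochberg at 0.05). Each stage was fitted as a line in section number, 0 at the lowest and 1 at the highest. The fits were tested on simulated data. VE was compared 2 against 2 without a block. The section numbers are positions.

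The 7 genes and all lists were chosen with earlier results of these data known. Named were the 7 genes, up to 3 genes per family list with the smallest p at E5.75, the 3 genes most correlated with each of the 7, and 5 further genes rising at all stages with the largest smallest change, unnamed gene models left out, with the genes on each side of the threshold. Alternatives were pseudocounts, filters, scalings, a detected-gene covariate and leaving out libraries. Leaving out sections 1 and 2 was chosen after seeing the data. Some genes that this rule names are not reported here.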

Additional observations from a re-analysis of the deposited data

How the results depend on the processing

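The E5.25 count of rising genes, 27, was 934 with a pseudocount of 0.1, 763 with a filter at FPKM 5 and 1 to 736 with 1 section left out. By limma it was 0 with a pseudocount of 5, with no filter, with quantile normalization and with the detected-gene covariate. There 1944, 1977, 1094 and 432 genes rose at an unadjusted p below 0.05. At E5.5 the 2325 rising genes became 1274 at a common sum without Rn45s, 820 with quantile normalization, 291 without sections 1 and 2, and 0 with the covariate (325 unadjusted). Rising genes were 91.6% of calls at E5.5 and 72.4% after quantile normalization. At E5.75 the 2108 became 845 with quantile normalization, 405 with the covariate and 1033 without sections 1 and 2. Rising genes were 90.1% of calls, against 62.8%, 64.9% and 73.4%. Quantile normalization moved the median change of all genes to 0.38, 0.46 and 0.16 at the 3 stages. The changes of the 7 genes under it were 6.61 to 9.19, 3.19 to 7.96 and 2.74 to 9.85.

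The count lower in VE, 3631, was 1659 with a filter at FPKM 5, 2032 with quantile normalization, 2173 against sections 3 to 8, and 0 to 5069 with 1 library left out, 0 being without section 6 or section 7 (1 unadjusted each). With section as a replicate block it was 3785. In the paired fit by limma the adjusted p was 0.0484 for Bex1, and no call on the 7 genes changed. The deviations of same-numbered libraries correlated at 0.000773 over 6413 genes, with 2 pairs.

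Of the changes of the 7 genes and named relatives, 2 turned negative, both at E5.5 with the covariate: Krtcap2 at -1.15 and Kdelr1 at -0.24. The cause was not tested. Of the calls on named relatives, 2 of 16 at E5.5 and 15 of 20 at E5.75 remained without sections 1 and 2. The median sustained detection at an FPKM of 5 was section 5 at E5.5 and section 10 at E5.75, and the median half-rise was section 5 at E5.5 under a common sum or quantile normalization and section 12 at E5.75 under the latter. Unknown depth limits every onset, since a weak gene is missed sooner in a section with few detected genes.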
